A study of Mus musculus with 17 samples.

Results

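Solute carriers are the proteins that move nutrients, ions and metabolites across cell and organelle membranes, and the 124 genes described here are those of the table whose symbol begins with Slc followed by a family number and a letter. They are 124 of the 8431 gene symbols in the table and belong to 38 families, 16 of which have a single gene here. For 3 of them, Slc7a6os, Slc4a1ap and Slc9a3r2, the product is no carrier itself but a neighbour or partner that took the name, which leaves 121 carriers. They were measured in 17 single cells, sorted for the Tomato reporter and picked one by one, from dorsal skin of adult C57BL/6 mice of genotype Prrx1-CreERT;Tomato, in which tamoxifen switches on a red reporter in cells with Prrx1 promoter activity. Tamoxifen was injected daily for 3 days at 2 mg per 30 g of mouse. There is 1 group, no animal is named for any cell, and no cells of untreated mice or other genotypes were analysed here, so the values describe levels and spreads over cells.

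All levels are on the scale of the deposited table, taken to be log2(FPKM + 1), where FPKM is the number of fragments scaled to gene length and library size. A gene counts as detected in a cell at FPKM 1 or more, which is a deposited value of 1. Each cell had 4369 of 8446 rows at that level, because all cells carry the same sorted values, and read depth is unknown. With 1 cell behind each value, an unexpressed gene cannot be told apart from RNA lost in making the library. The cells carried the fibroblast markers throughout, with 10 or 11 of 11 measured markers per cell. The pericyte, endothelial, adipocyte, keratinocyte, immune, melanocyte, Schwann and red cell lists had between 1 and 6 measured markers each. None of these markers was detected in all 17 cells, but some were widespread. The red cell marker Alas2 was detected in 14 cells, the adipocyte marker Fabp4 in 12 and the Schwann marker Mbp in 12. Cells 1 to 5 are a set formed from the data, by low values they share, and not from the labels. They had 4 or 5 of 6 pericyte or smooth muscle markers, against 0 to 2 in the other 12 cells. The summed levels were 5.48 to 11.4 and 0.15 to 6.87. The count of markers rests mostly on values near the threshold: Acta2, Myl9 and Rgs5 lay between 1.04 and 2.00 in cells 1 to 5. Acta2 reached 5.64 in cell 8 and Myl9 4.01 in cell 14. Kcnj8 was well above the threshold in cells 4 and 5, at 4.98 and 6.48, and in cell 12, at 3.80. Abcc9 was at 2.82 in cell 4. Higd1b was at 2.25 in cell 2, 2.52 in cell 11 and 4.32 in cell 16. Cell 16 had 4 of 4 adipocyte markers at a summed level of 24.6, against 0 to 3 markers and 0.77 to 14.5 in the other 16 cells, and 3 of 3 melanocyte and Schwann markers. The part of these markers in the carrier levels was not tested. Without cells 1 to 5 the median number of Slc genes per cell was still 51. The number detected in all remaining cells was 10 instead of 9, with Slc44a1 added (8.06%, against 14.2% of all symbols). Without cell 16 these numbers were 51 and 9 (7.26%, against 13.3% of all symbols). Leaving out cells can only keep or raise the number in all cells, so that number says nothing on the part of the markers.

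The carriers of a cell divide by place and cargo. Those of the plasma membrane bring in amino acids, sugars, metals and vitamins and set acidity and volume, those of family 25 exchange metabolites across the inner mitochondrial membrane, and those of family 35 carry nucleotide sugars and related donors into the endoplasmic reticulum and Golgi, where glycoproteins and proteoglycans are built. Fibroblasts, which make collagen and proteoglycans, draw on all of these. Many families hold several members with overlapping cargo.

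Only a few carriers were present in every cell. Detected in all 17 cells were 9 of 124 Slc genes (7.26%), against 13% of all symbols. A further 4 (3.23%) were detected in 14 to 16 cells, against 12% of all symbols, and 88 (71%) in 4 to 13 cells, against 56.2%. At the other end 23 Slc genes (18.5%) were detected in 0 to 3 cells, against 18.8% of all symbols. The typical Slc gene was detected in 6 cells (median), where the median over all symbols was 8, and the median over genes of the mean value was 1.36 for Slc genes and 1.89 for all symbols. Slc genes were therefore found in every cell less often than the table's average gene, while the share found in few cells was near the background, and neither gap was tested. At FPKM 10 or more only Slc25a5 and Slc25a3 remained in all 17 cells, which is 1.61% of Slc genes against 5.66% of all symbols.

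**Figure D1:**
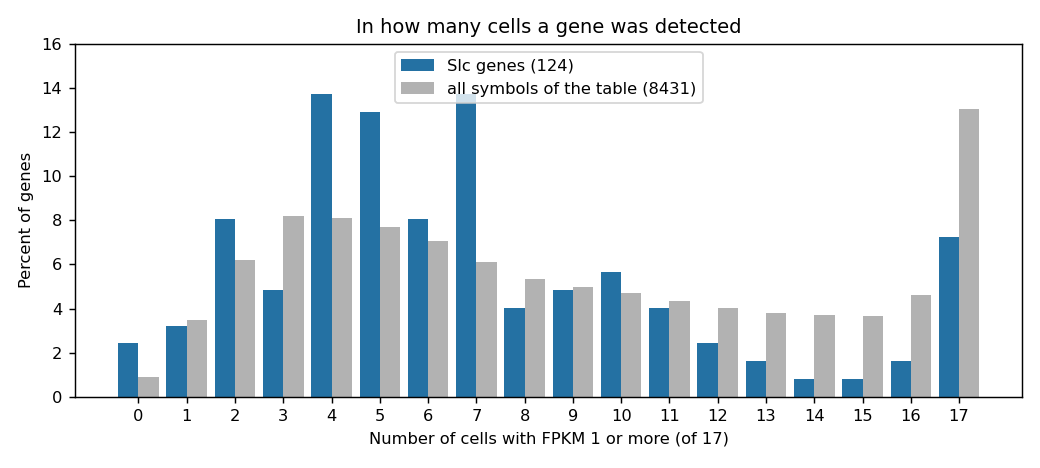
Percent of genes (vertical axis) by the number of cells in which a gene was detected at FPKM 1 or more (horizontal axis), for the 124 Slc genes (blue) and all 8431 symbols of the table (grey). Slc genes pile up at 4 to 7 cells and are fewer than all symbols at 17 cells, 7.26% against 13%.

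The carriers present in every cell were led by 3 mitochondrial genes. Slc25a5, an ADP/ATP carrier that exports ATP from mitochondria, had a lowest value of 4.65 in cell 16, a median of 7.79 and a highest value of 9.29 in cell 9 (mean 7.60, SD 1.35, n = 17 cells). Slc25a3, which brings phosphate into mitochondria, ranged from 3.72 in cell 3 to 8.85 in cell 17 with a median of 7.59 (mean 7.25, SD 1.23). Slc25a4, the other ADP/ATP carrier with a row, ranged from 1.71 in cell 6 to 8.21 in cell 1 with a median of 7.24 (mean 6.82, SD 1.73). All 3 were high in nearly every cell, and their means lay closer together than their SDs, so their order is not resolved over these cells. Detection in 17 of 17 cells has an exact 95% Clopper-Pearson interval of 80.5% to 100% of cells, which covers counting error over cells only. The interval takes the cells as independent, and it does not allow for these genes being picked because all 17 cells had them.

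The levels of the ADP/ATP carriers varied separately from cell to cell. In cell 6 Slc25a5 was at 8.60 beside Slc25a4 at 1.71, whereas in cell 2 Slc25a5 was at 4.71 beside Slc25a4 at 7.24. Slc25a5 was the higher one in 12 cells and Slc25a4 in 5. In each cell at least 1 of them was at 4.65 or more, and the median of the higher value was 8.17. Across the 17 cells the 2 genes showed almost no relation, with a Pearson r of 0.06 and a Spearman rho of 0.06, given as a description of cells that share their normalisation. In cell 16 both were low, at 4.65 for Slc25a5 and 4.23 for Slc25a4, and without that cell the r was -0.21. The longest coding transcripts of the 2 genes share 78% of letters over 905 aligned bases, and how reads that fit both were counted is not given in what was used here.

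The 6 further genes of all 17 cells served amino acids, nucleobases, sugar and mitochondrial cofactors. Slc43a3 stands in a family of amino acid carriers but is known as a carrier of purine nucleobases. It ranged from 2.83 in cell 7 to 8.59 in cell 12 with a median of 7.14 (mean 6.73, SD 1.68). Slc50a1, the only mammalian member of the SWEET sugar transporters, had the widest spread of the 9, from 1.44 in cell 6 to 9.19 in cell 16 with a median of 7.38 (mean 6.30, SD 2.66). In cells 3, 4, 6, 11 and 12 it lay between 1.44 and 3.19, and in the other 12 cells it lay at 6.29 or more, so its values fell into a low and a high group with nothing between. Slc25a39, which carries glutathione into mitochondria, ranged from 2.39 in cell 10 to 8.59 in cell 6 with a median of 6.53 (mean 6.25, SD 1.84).

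The remaining 3 carry amino acids at the plasma membrane. Slc3a2, the heavy chain (CD98) that brings several amino acid exchangers to the surface, ranged from 1.12 in cell 2 to 9.10 in cell 16 with a median of 6.80 (mean 6.10, SD 2.12). Slc1a5, a sodium-coupled carrier of glutamine and other neutral amino acids, ranged from 1.64 in cell 3 to 7.61 in cell 4 with a median of 5.86 (mean 5.67, SD 1.49). Slc38a2, a sodium-coupled neutral amino acid importer, ranged from 1.09 in cell 12 to 8.68 in cell 16 with a median of 5.31 (mean 5.05, SD 1.71). Each was near the detection threshold in 1 cell and at FPKM 10 or more in 15 or 16 cells. The means of the 9 genes fell from 7.60 to 5.05, with neighbours in that order closer than their SDs over cells. In GRCm38 they lie on 9 different chromosomes, for example Slc3a2 on chromosome 19 from 8706882 to 8723369 and Slc38a2 on chromosome 15 from 96687392 to 96699730.

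**Figure D2:**
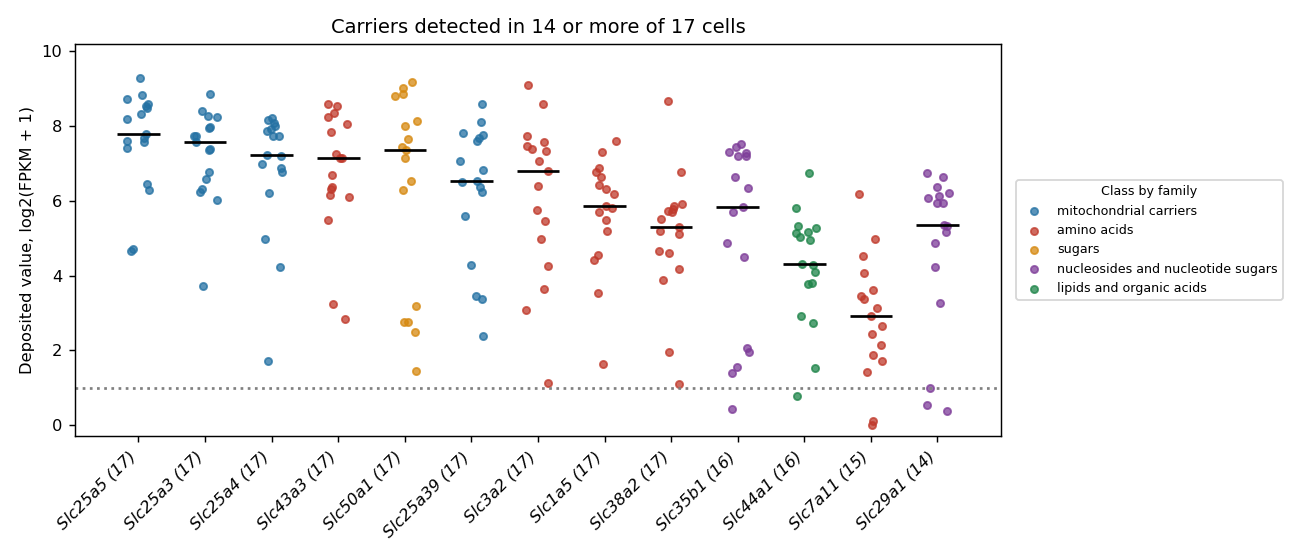
Deposited value, log2(FPKM + 1), in each of the 17 cells (points) for the 13 carriers detected in 14 or more cells, with the number of cells in parentheses, the median as a black bar and the detection threshold of 1 as a dotted line. Slc25a5 and Slc25a3 stay at 3.72 or more in all cells, whereas Slc50a1 splits into 5 cells at 3.19 or less and 12 cells at 6.29 or more.

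Another 4 carriers missed only 1 to 3 cells. Slc35b1, an ATP/ADP exchanger of the endoplasmic reticulum, was detected in 16 cells with a median of 5.82, a lowest value of 0.44 in cell 14 and a highest of 7.53 in cell 1. Slc44a1, the choline transporter-like protein that feeds phospholipid synthesis, was detected in 16 cells, from 0.79 in cell 4 to 6.74 in cell 15 with a median of 4.32. Slc29a1, an equilibrative nucleoside transporter, was detected in 14 cells, from 0.38 in cell 15 to 6.74 in cell 4 with a median of 5.36. Slc7a11, the light chain of the cystine/glutamate exchanger that supplies cystine for glutathione, was detected in 15 cells, from 0.00 in cell 2 to 6.19 in cell 10 with a median of 2.91. It was the lowest of the 4, with FPKM 10 or more in 5 cells. Its annotated exons sum to 13922 bases, the second longest of the 124 genes, and FPKM divides by length while the kit reads 3' ends. The part of length in its level was not tested.

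The cystine/glutamate exchanger needs both of its chains, and both were detected together in 15 of 17 cells. Cells 2 and 13 had the heavy chain Slc3a2 without Slc7a11, at 1.12 and 7.58 for Slc3a2 and 0.00 and 0.10 for Slc7a11. Over the 17 cells the 2 genes had a Pearson r of 0.50 and a Spearman rho of 0.51, and the r was 0.28 with cells 1 to 5 left out. Slc38a2, a pair chosen after its values were seen, had an r of 0.52 (rho 0.42) with Slc3a2 and of 0.43 (rho 0.50) with Slc7a11, and without cell 16 these were 0.41 and 0.32. Without cells 1 to 5 the r of Slc38a2 with Slc3a2 was 0.78. Cells 10 and 16 were high for all 3, at 7.48, 6.19 and 6.77 in cell 10 and 9.10, 4.97 and 8.68 in cell 16 for Slc3a2, Slc7a11 and Slc38a2. Another light chain that pairs with Slc3a2, Slc7a6, was detected in 6 cells and had an r of 0.03 with it. In cell 2, where Slc3a2 and Slc7a11 were at their lowest, Slc38a2 was at 5.86 and Slc1a5 at 6.65, both above their medians. Slc1a5 was also above its median in cells 10 and 16, at 6.79 and 6.87. These relations describe 17 cells that share normalisation and have no test.

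**Figure D3:**
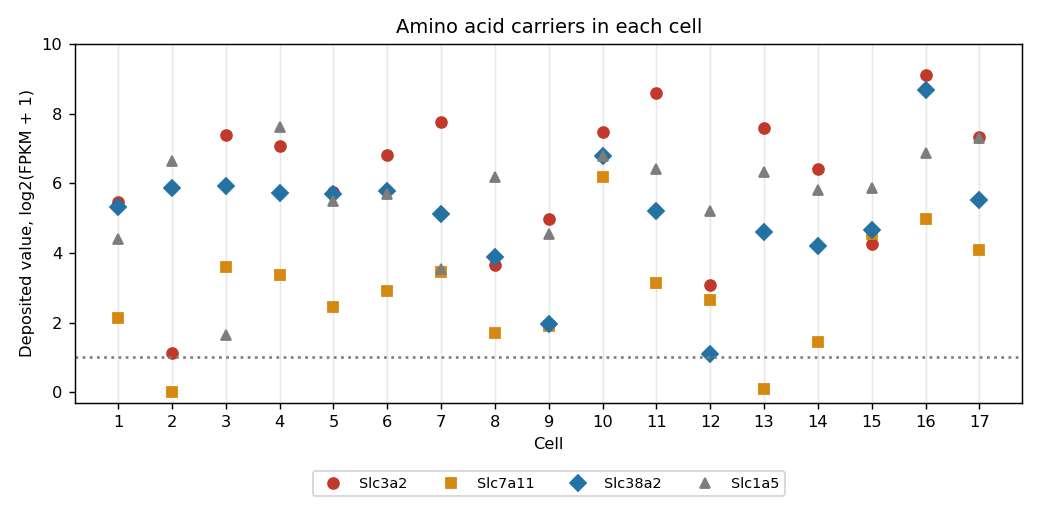
Deposited value, log2(FPKM + 1), of Slc3a2, Slc7a11, Slc38a2 and Slc1a5 in each of the 17 cells, with the detection threshold of 1 as a dotted line. Slc3a2, Slc7a11 and Slc38a2 are all high in cells 10 and 16, and Slc3a2 and Slc7a11 are both at their lowest in cell 2.

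As background, Slc7a11, Slc3a2 and Slc38a2 are known targets of the amino acid response, in which the factor ATF4 with a C/EBP partner binds composite sites such as TTGCATCA. These genes and this motif were chosen after the values were seen. The 250 bases before the start that RefSeq annotates for each gene on GRCm38.p6 are shown, read on the gene's own strand, with each match to TTGCATCA or its reverse complement TGATGCAA in capitals. They cover chr3:50443614-50443863 for Slc7a11, chr19:8713898-8714147 for Slc3a2 and chr15:96699729-96699978 for Slc38a2, all on the minus strand. The Slc3a2 window lies inside the GENCODE span of that gene given above, since the annotations place its start differently.
Slc7a11: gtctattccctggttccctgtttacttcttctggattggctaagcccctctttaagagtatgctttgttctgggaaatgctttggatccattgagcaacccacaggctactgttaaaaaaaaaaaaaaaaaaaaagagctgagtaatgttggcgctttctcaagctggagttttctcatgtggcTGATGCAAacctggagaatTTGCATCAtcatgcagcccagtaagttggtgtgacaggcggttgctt
Slc3a2: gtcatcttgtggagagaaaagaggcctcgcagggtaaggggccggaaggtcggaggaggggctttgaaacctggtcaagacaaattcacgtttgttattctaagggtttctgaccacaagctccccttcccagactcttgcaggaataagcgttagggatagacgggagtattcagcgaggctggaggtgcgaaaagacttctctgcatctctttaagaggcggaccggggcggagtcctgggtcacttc
Slc38a2: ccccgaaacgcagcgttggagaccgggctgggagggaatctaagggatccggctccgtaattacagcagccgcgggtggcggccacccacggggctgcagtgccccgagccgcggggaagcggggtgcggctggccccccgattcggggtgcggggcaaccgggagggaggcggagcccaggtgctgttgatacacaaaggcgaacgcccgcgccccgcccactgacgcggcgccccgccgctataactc

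The Slc7a11 window held 2 matches, one in each orientation, and the Slc3a2 and Slc38a2 windows held none. Of the 124 genes 101 had a promoter entry, with 138 windows among them, of which 2 (1.45%) held the motif, those of Slc7a11 and Slc50a1. Among all 32851 windows 260 (0.791%) held it. A match is a run of letters and not a shown binding site, and a window without one leaves the rest of the gene unsearched.

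The other amino acid carriers were present in part of the cells. The amino acid families had 15 genes, with Slc43a3 counted by its family. Of these 4 were detected in all cells, 1 in 14 to 16, 9 in 4 to 13 and 1 in 1 to 3. The same shares were 7.26%, 3.23%, 71% and 16.1% of all Slc genes and 13%, 12%, 56.2% and 17.9% of all symbols. Each cell had 6 to 11 of the 15. Slc7a1, which imports arginine and lysine, was detected in 11 cells with a highest value of 6.31 in cell 11. Slc38a10 was detected in 12 cells with a highest value of 7.20 in cell 12. Slc6a6, the taurine transporter, was detected in 9 cells and was highest in cell 2 at 5.84, and Slc6a8, the creatine transporter, in 7 cells with a highest value of 5.27 in cell 11. Slc1a3, a glutamate transporter, was detected in 7 cells, at 6.31 in cell 1 and 3.15 in cell 16 but at 1.49 or less in the other 15 cells. Slc36a4, the only member of its family in the table, was detected in 5 cells, up to 5.15 in cell 4.

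Glucose carriers were scarce among the genes with a row. Of the facilitative hexose transporters the table held Slc2a1, Slc2a8 and Slc2a10, and 7 of the 17 cells had at least 1 of them. Slc2a1, the widely used glucose importer, was at 6.71 in cell 16 and 5.51 in cell 12 and at 0.32 or less in the other 15 cells, so that its 2 detected cells stood far above the rest. Slc2a8 was detected in 2 cells, up to 5.53 in cell 10, and Slc2a10 in 4 cells, up to 4.20 in cell 14. Slc5a3, the inositol importer of the sodium-coupled family, was detected in 4 cells with a highest value of 4.21 in cell 11, and it shares exons with Mrps6 on the same strand. Slc37a3 was detected in 7 cells, up to 5.61 in cell 11. Slc45a3 was detected in none, with a highest value of 0.40. The lactate and pyruvate carrier Slc16a1 was detected in 11 cells, with a median of 2.81 and a highest value of 6.29 in cell 4. Its chaperone Bsg was detected in all 17 cells, between 6.89 and 9.07, and the 2 had an r of -0.03, which was 0.25 without cells 1 to 5.

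Pyruvate entry into mitochondria needs both subunits of a carrier named outside the Slc series, and the RNA of both was detected in every cell. Mpc1 ranged from 2.81 in cell 11 to 8.30 in cell 5 and Mpc2 from 2.77 in cell 4 to 10.53 in cell 12. Of the 24 genes of family 25, Slc25a5, Slc25a3, Slc25a4 and Slc25a39 were in all cells. A further 14 were detected in 4 to 13 cells, 5 in 1 to 3 and 1 in none. The shares with 4 to 13, 1 to 3 and 0 cells were 71%, 16.1% and 2.42% of all Slc genes. Over all symbols they were 56.2%, 17.9% and 0.901%. Each cell had 8 to 14 of the 24. Slc25a17, whose product sits in peroxisomes, was detected in 13 cells with a median of 5.20 and was highest in cell 3 at 7.22. Slc25a11, the oxoglutarate/malate carrier, was detected in 10 cells, up to 7.68 in cell 7, and its exons overlap those of Rnf167 on the opposite strand. Slc25a26, which brings S-adenosylmethionine into mitochondria, was detected in 11 cells, up to 4.76 in cell 11. Its exons overlap those of Lrig1 on the opposite strand and the 2 rows had an r of 0.54, so reads of the 2 genes cannot be told apart if strand was not used in counting. Slc25a10, the dicarboxylate carrier, was detected only in cell 13, at 5.21, and Slc25a1, the citrate carrier, only in cell 16, at 1.81. Slc25a38, a glycine carrier that serves heme synthesis, was detected in 4 cells, up to 4.91 in cell 1, and was the only 1 with a row of 11 carriers known from other skin cells or red cells. Slc25a14 was detected in 2 cells, up to 5.42 in cell 6, and Slc25a16 in 3, up to 4.82 in the same cell. Slc25a14 and Slc25a16 thus shared their highest cell, while Slc25a10 and Slc25a1 each had another.

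Carriers for the secretory pathway were numerous but none was in all cells, beside 7.26% of all Slc genes and 13% of all symbols. Family 35 had 17 genes, of which each cell had 4 to 12 with a median of 7. Slc35a1, which brings CMP-sialic acid into the Golgi, was detected in 9 cells and highest in cell 5 at 7.25, and Slc35a2, the UDP-galactose carrier, in 8 cells and highest in cell 3 at 7.96. At least 1 of Slc35a1, Slc35a2 and the UDP-N-acetylglucosamine carrier Slc35a3 was detected in 14 cells. Slc35b2 and Slc35b3, which import the sulfate donor PAPS for proteoglycan sulfation, were detected in 10 and 6 cells, and 11 cells had at least 1 of them. Slc35d1, which supplies precursors of chondroitin sulfate, was detected in 7 cells and highest in cell 16 at 7.23. Slc35c2 was detected in 8 cells, up to 6.34 in cell 17. Slc33a1, which brings acetyl-CoA into the endoplasmic reticulum, was detected in 5 cells, up to 4.69 in cell 4.

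Metal carriers were detected in an intermediate number of cells without exception. All 21 genes of these families fell in the range of 4 to 13 cells, beside 71% of all Slc genes and 56.2% of all symbols. Each cell had 5 to 13 of the 21. Slc39a13, an intracellular zinc transporter mutated in a human connective tissue disease, was the most widespread, with 13 cells, a median of 4.62 and a highest value of 8.47 in cell 12. Its exons overlap those of Psmc3 on the opposite strand, and the 2 rows had an r of 0.03. Slc39a7, which releases zinc from the endoplasmic reticulum, was detected in 12 cells, with 6.94 in cell 16 and 0.00 in cell 2. Slc39a6 split most sharply by SD, with a highest value of 7.18 in cell 10, a median of 3.63 and a lowest of 0.07 (SD 3.02), and all of its 9 detected cells were at FPKM 10 or more. Slc39a10, known to act with Slc39a6, was detected in 7 cells and highest in cell 14 at 7.75. Slc39a14, a zinc and iron importer, was detected in 8 cells, up to 4.13 in cell 2, and had an r of -0.34 with the zinc-binding Mt2, which was between 8.62 and 13.69 in all cells.

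Of the zinc exporter family Slc30a7 and Slc30a9 were each detected in 9 cells, up to 7.13 in cell 12 and 5.93 in cell 6. The high-affinity copper importer Slc31a1 was detected in 11 cells, up to 5.25 in cell 4, and its relative Slc31a2 in 7, up to 6.56 in cell 8. The iron importer Slc11a2 was detected in 5 cells, up to 7.02 in cell 16. Slc41a1, a magnesium carrier, was detected in 10 cells, with 8.36 in cell 11 and a median of 2.35. The heme transporter Slc48a1, whose exons overlap those of Hdac7 on the opposite strand, was detected in 10 cells, up to 5.30 in cell 10. The iron store Ftl1 (10.29 to 12.47) and the copper chaperone Atox1 (7.98 to 11.53) were high in every cell, whereas no metal carrier was detected in more than 13 cells.

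None of the carriers of ions, vitamins and other small molecules was in all cells, where the share was 7.26% of all Slc genes and 13% of all symbols. Of 13 genes for acid-base balance and chloride 9 were detected in 4 to 13 cells and 4 in 1 to 3. The same shares were 71% and 16.1% of all Slc genes and 56.2% and 17.9% of all symbols. Slc4a4, a sodium-bicarbonate cotransporter, was detected in 7 cells and was highest in cell 10 at 5.32. Slc9a9, a sodium/proton exchanger of endosomes, was detected in 5 cells, up to 5.53 in cell 6. Slc26a6, an anion exchanger, was at 8.22 in cell 9 and 6.91 in cell 4 and at 1.29 or less in the other 15 cells. Slc12a2, which brings in sodium, potassium and chloride, was detected in 3 cells, up to 4.55 in cell 13. Slc20a1, a phosphate importer, was detected in 6 cells, up to 6.06 in cell 3. Slc23a2, the ascorbate importer that supplies the cofactor of collagen hydroxylation, was detected in 8 cells, up to 6.26 in cell 16, and was at 0.47 or less in the other 9. The proton-coupled folate carrier Slc46a1 was detected in 4 cells, up to 6.27 in cell 15, and the other folate carrier, Slc19a1, in cell 17 alone at 1.80.

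Slc10a6, which imports sulfated steroids, was detected in 9 cells, with a highest value of 6.66 in cell 16. Slc27a4, a fatty acid transport protein, was detected in 4 cells, up to 5.15 in cell 2. Slc17a5, which exports sialic acid from lysosomes, was detected in 6, up to 5.45 in cell 10. The carnitine carrier Slc22a5 and its paralog Slc22a21 were detected together in cells 4, 10, 11 and 14, at 3.56, 4.37, 4.82 and 2.66 for Slc22a5 and 6.38, 3.88, 4.48 and 1.90 for Slc22a21, and Slc22a21 also in cell 8 at 2.01. Their r over 17 cells was 0.90 (rho 0.89), a pair chosen after its values were seen, and 0.95 without cell 4. The longest coding transcripts of the 2 genes are 90.2% identical over 3002 aligned bases, so the levels of the single genes are uncertain, since reads may have been split between them or counted for both.

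A carrier found in few cells could still be high there. The 20 Slc genes detected in 1 to 3 cells had a highest value between 1.80 and 6.99, with a median of 5.02, and 10 of them reached 5 or more. Highest values were not computed over all symbols, so this is not shown to be particular to carriers. The mitochondrial calcium exchanger Slc8b1 was at 6.99 in cell 7, at 1.56 in cell 10, at 1.17 in cell 12 and under 1 elsewhere. Slc22a18 reached 5.78 in cell 13, Slc12a8 5.69 in cell 11, Slc22a22 5.66 in cell 5, Slc26a11 5.40 in cell 3 and Slc9a8 5.34 in cell 4. In the cells where they were detected, the median level was 3.81 for Slc genes of 1 to 3 cells, 3.80 for those of 4 to 13 cells and 7.14 for those of all 17. The same medians over all symbols were 3.85, 3.83 and 7.24, so Slc genes lay close to all symbols with the same number of cells. Detected in no cell were 3 Slc genes, among them Slc45a3 and Slc24a3, a sodium/calcium exchanger with a highest value of 0.25.

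**Figure D4:**
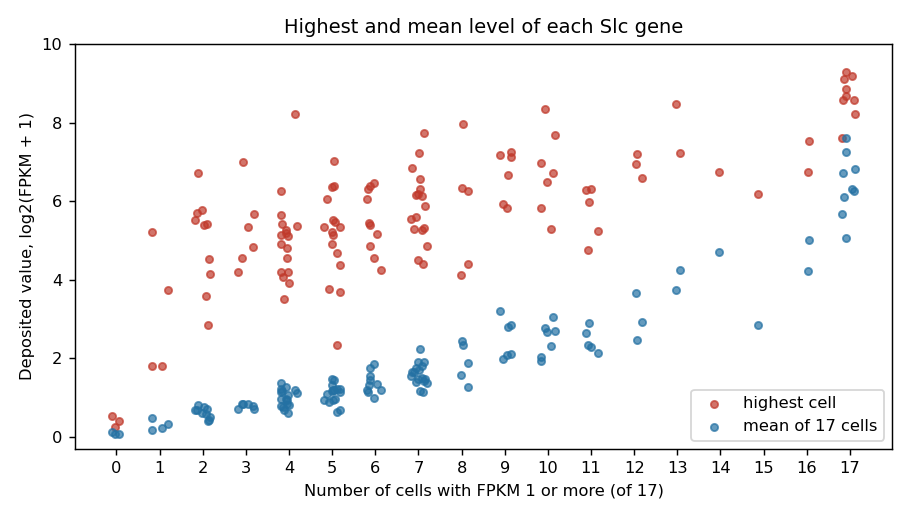
Highest value in any cell (red) and mean over 17 cells (blue), as log2(FPKM + 1), of each of the 124 Slc genes against the number of cells in which it was detected. The mean climbs with the number of cells, while genes of 1 to 3 cells reach up to 6.99 in their highest cell.

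Single values were mostly either low or clearly present. Of the 2108 Slc values 59% were under 1, 12.2% lay from 1 to under 3, and 28.8% were at 3 or more, against 48.3%, 13.6% and 38.1% over all symbols. The median exonic length was 3529 bases for Slc genes of all 17 cells, 5005 for those of 4 to 16 and 3610 for those of 0 to 3, beside 2892, 4733 and 4396 for all symbols, and the part of length in the counts was tried only as the setting described at the end.

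The number of carriers detected differed between cells. It ranged from 43 Slc genes in cell 2 to 67 in cell 3 with a median of 51 (SD 5.96), which is 34.7% to 54.0% of the 124. Every cell had 51.7% to 51.8% of all symbols detected, but the shared sorted values fix that share. It is therefore no measure of how far such a count varies, and whether other sets of 124 genes vary as much was not tested. Cell 3 stood apart from the next cell, cell 5 with 58, and at FPKM 10 or more it had 50 where the median cell had 31. It had 13 of 21 metal genes, 12 of 19 nucleoside and nucleotide sugar genes, 12 of 24 mitochondrial carriers, 10 of 15 amino acid genes and 7 of 13 acid-base and chloride genes. Slc25a3 and Slc1a5 were at their lowest in this cell. Cell 3 had 1432 rows at its lowest value, within the 871 to 1766 of all cells, and 4 of 6 pericyte or smooth muscle markers. Without it the median stayed at 51. Cells 1 to 5 had 43 to 67 Slc genes, cells 6 to 14 had 47 to 56 and cells 15 to 17 had 44 to 49. These sets were formed from the data, by low values the cells share, and not from the labels.

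Summed over the 124 genes, Slc FPKM took 0.33% of a cell's FPKM in cell 8 and 0.626% in cell 16, with a median of 0.444%. Cell 16 held the highest value of 14 Slc genes, among them Slc50a1, Slc3a2 and Slc38a2, and cell 11 of 15, whereas cells 8 and 14 held 2 each. The share of all symbols with their highest value in each cell was not counted, so these counts cannot be read as particular to carriers. Cells 16 and 11 had 45 and 51 Slc genes detected, at or under the median, and 4 and 3 of 4 adipocyte markers. Cell 17 also had 3 of 4 adipocyte markers, and it held the highest value of 7 Slc genes. The part of these markers in the values was not tested.

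**Figure D5:**
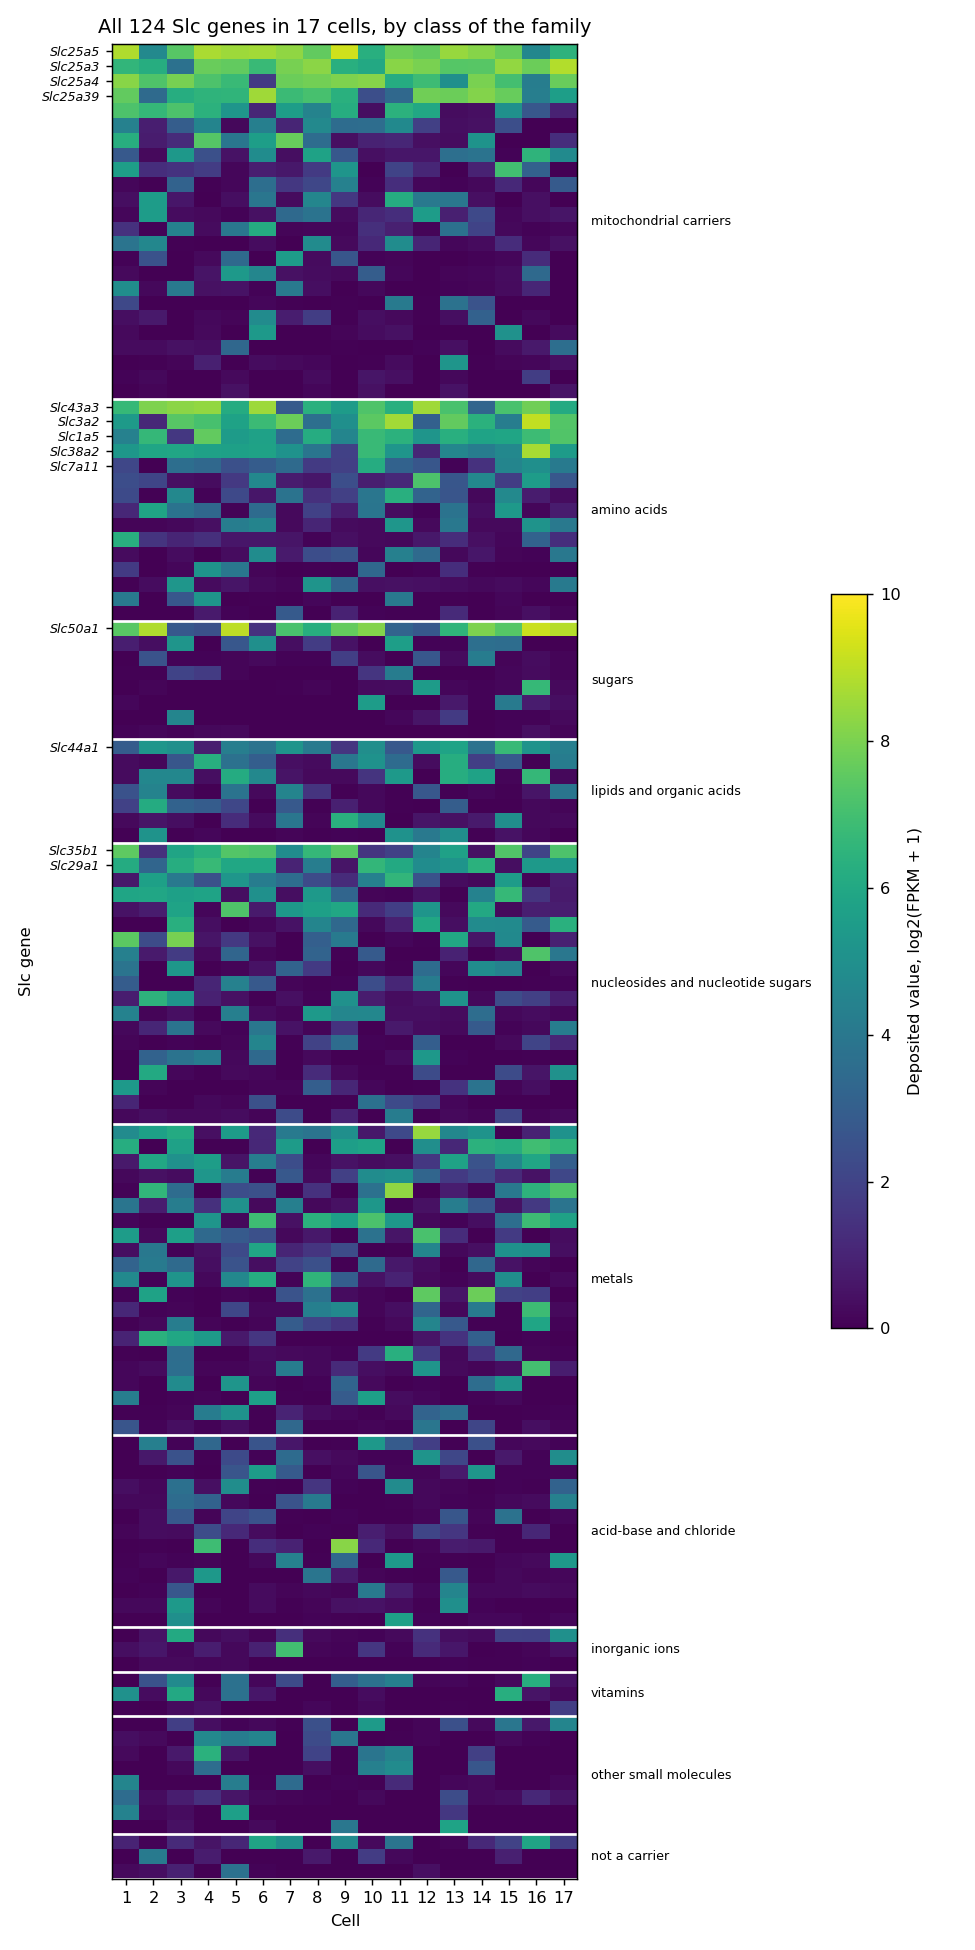
Deposited value, log2(FPKM + 1), of all 124 Slc genes (rows, grouped by class of the family and ordered by the number of cells, with names for genes of 14 or more cells) in the 17 cells (columns). The 4 mitochondrial and 4 amino acid genes (Slc43a3 counted by its family) at the top of their classes and Slc50a1 are filled across all cells. The other rows are filled in changing sets of cells.

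Of the machines that power carriers, some parts were detected in every cell and others were not. For comparison with the counts below, 13% of all symbols were detected in every cell. Of 5 measured sodium pump genes 3 were detected in all cells, among them the regulator Fxyd1, from 7.78 in cell 7 to 11.69 in cell 13, while its relative Fxyd6 was detected in 9. Of 16 measured subunits of the vacuolar proton pump, which acidifies the lysosomes and vesicles that proton-coupled carriers draw on, 7 were detected in all cells and 9 were not, down to Atp6v1c1 in 7 cells, and a cell held 11 to 15. Atp6v1f (mean 8.57), Atp6v0e (mean 7.85) and Atp6v0c (mean 7.71) led that list. Of the 3 outer mitochondrial porins Vdac3 was detected in 17 cells, Vdac2 in 16 and Vdac1 in 13. None of the 18 measured ABC transporters, which pump with ATP of their own, was in all cells, and Abca8a and Abca1 were each detected in 15. Of 15 measured members of Slc families that bear other names, the mitochondrial Mtch1 and Mtch2 were detected in all 17 cells, Slco3a1 in 14 and Ucp2 in 12. Membership in a family does not show that each product is a carrier. Cell 13 had all 15 of these members with other names, where the median cell had 8. The 7 listed aquaporins were not analysed here.

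Among the 9 genes of all cells, pairs went together in no common direction. Of their 36 pairs 16 had a positive Pearson r, with a median r of -0.13. The highest was 0.68 (rho 0.50) for the mitochondrial Slc25a5 and Slc25a39, and the lowest was -0.53 (rho -0.40) for Slc25a5 and Slc38a2. Over the 6848 other genes detected in 4 or more cells, the gene whose values were most like those of Slc25a5 was Ssr2 (Spearman rho 0.85, 17 cells). For Slc25a3 it was Usp22 (rho 0.80), for Slc25a4 Arl1 (rho 0.89), for Slc43a3 Tmeff2 (rho 0.81) and for Slc50a1 Nsd1 (rho 0.88). Each is the highest of 6848 values from 17 cells that share one distribution, so it is given as a name and a number with no test.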

How the data were processed

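The table holds 17 single cells in 1 group, each a sample of its own in the labels. Per the labels, skin was digested with elastase and collagenase and red cells were sorted, and the kits were SMART-Seq v4 3' DE and Nextera XT. TopHat2, Cufflinks and GRCm38 are named in the submitters' processing notes, without versions or settings. The deposited values are taken as log2, since neither base nor added constant is stated. Sorted values above 3 differed between cells by at most 0.0165. Depth is unknown, and the number of cells limits precision.

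Each symbol was represented by its row with the highest mean. Lengths and positions come from GENCODE M21, which matched all 124 Slc genes by Ensembl identifier. Exons of 37 Slc genes overlap another gene's, 11 of them a gene with a row, and strand use in counting is not stated. No test was run, since the cells are 1 group without named animals. Named genes are those in all cells, the 12 of 4 to 13 cells with the largest SD, the 12 of 1 to 3 cells with the highest value, those in none, the top gene of each family, up to 4 of each list and the fixed pairs. A few genes that the rule names are not reported here. Other members were named after their values were seen, and the 3 genes most like each of 5 leading genes were found, of which 1 each is given. The members and lists were chosen with earlier results of these data known. The counting and correlation steps were tested on simulated data. Tools were numpy 2.4.6, Python 3.11.15, scipy 1.17.1, matplotlib 3.10.9 and pandas 2.3.3.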

Additional observations from a re-analysis of the deposited data

How the results depend on the processing

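The counts rest on the detection threshold. The median number of Slc genes per cell, 51, was 102 for any value above the cell's lowest, 38 at FPKM 5 and 31 at FPKM 10. The number in all cells, 9, was 39, 3 (Slc25a3, Slc25a5 and Slc43a3) and 2 under the same 3 settings, which is 31.5%, 2.42% and 1.61% of Slc genes against 43.4%, 7.21% and 5.66% of all symbols. The number in at most 3 cells, 23, was 0, 45 and 67, and 51 without cells 1 to 5, where fewer cells are counted by construction. Of the related transport genes 19 were in all cells as counted here, 48 by any value above the lowest and 7 at FPKM 10. The median of the means, 1.36, was -0.24 with a pseudocount of 0.1 and 1.68 after multiplication by exonic length, a setting that kept 8 of the 9 genes, lost Slc50a1 and gained Slc44a1. Leaving out cells 15 to 17, cell 16 or, chosen after the data were seen, cell 3, moved none of the 4 Slc values beyond the limits used. Summing rows of one symbol did not either. The 4 values are per cell, in all cells, in at most 3, and median of means. The limits are 1 SD over cells, or 1.5 times for a count. The related genes were not recounted under these settings. The sets of cells 1 to 5 and 15 to 17 were also formed from the data, by low values they share, and not from the labels. No paired analysis was possible because there is 1 group.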
